A study of Mus musculus with 3 samples.

Results

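Macrophages in S phase, the stage of the cell cycle in which DNA is copied, were described in single-cell RNA sequencing of murine bone marrow derived macrophages (BMDMs). Members were chosen by counts of unique molecular identifiers (UMIs, each marking 1 captured transcript). A barcode with more than 500 UMIs, more than 500 detected genes and under 5% mitochondrial UMIs was called an S phase cell when it met 3 limits. It held 5 or more UMIs summed over *Hist1h1b*, *Hist1h2ap*, *Pclaf* and *Rrm2*, at most 1 UMI summed over the G2 and mitosis genes *Cenpf*, *Prc1*, *Ube2c* and *Birc5*, and under 1% of its UMIs in the neutrophil genes *S100a8* and *S100a9*. 135 of 15806 kept cells met them (0.854%). They were compared with the 12142 kept cells that had 0 UMIs of all 8 cycle genes and passed the S100 limit, called 0-UMI cells here. Because the members were chosen on their own counts, every level set against 0-UMI cells is a description and carries no test.

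The BMDMs were grown in culture from the pooled marrow of female C3H/HeN mice, 6 to 8 weeks old by the labels. Control cells (Ctrl) received PBS and were untreated otherwise, and the other cells received 1 µg/mL of lipoproteins purified from the Lyme disease spirochete *Borrelia burgdorferi* (*Bb*LP). LP1 cells were exposed to them for 1 hour and LP4 cells for 4 hours. Ctrl was collected at 4 hours, so LP1 had no control of its own time, and both contrasts share the Ctrl library. Each condition is 1 library of cells pooled from 3 wells, which the study's methods also call cells of 3 mice, so the spread between cultures was not measured, no test between conditions was possible, and all intervals below are 95% intervals for counting error only.

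A dividing cell passes from G1 into S phase, where it fires replication origins, copies its DNA and packs it with new histones. It then passes through G2 into mitosis. Genes for the helicase, the polymerases and nucleotide supply are driven by E2F factors at the G1/S border, and the replication-dependent histone genes, clustered in the genome, are transcribed while DNA is being made. BMDMs are grown in a medium with macrophage colony-stimulating factor, which keeps a part of them dividing, and Toll-like receptor ligands such as bacterial lipoproteins are known to act on both inflammatory genes and proliferation in these cells.

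S phase cells numbered 59 in Ctrl, 38 in LP1 and 38 in LP4. Their counts summed to 461631, 482104 and 713944 UMIs in that order, beside 26917358, 35883594 and 41864791 UMIs in 0-UMI cells. The median depth of S phase cells was 7682, 11819 and 19679.5 UMIs, or 1.58, 1.35 and 1.79 times that of 0-UMI cells. The S phase cells were thus the deeper class in every library, and libraries also differed in depth. When each cell was thinned to 2000 UMIs, S phase cells had a median of 1124, 1133 and 1124.5 detected genes against 1061, 1050 and 1080 in 0-UMI cells. Libraries shared 10 (Ctrl and LP1), 7 (Ctrl and LP4) and 4 (LP1 and LP4) barcode sequences, and 0 of the S phase barcodes was among them.

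The genes that define macrophages were present in these cells. UMIs of *Lyz2* (lysozyme), *Tyrobp* and *Fcer1g* (adaptors of activating receptors) were found in all 135 S phase cells, and UMIs of *Csf1r*, the receptor for macrophage colony-stimulating factor, in 52 of 59, 37 of 38 and 38 of 38 cells. The summed level of the 15 macrophage genes was 12647 (12324 to 12975) counts per 1000000 UMIs (CPM) in Ctrl. LP1 had 12643 (12327 to 12964) CPM and LP4 13353 (13086 to 13623) CPM. In 0-UMI cells it was 18400, 17655 and 16562 CPM. The label holds by these markers for the class as a sum, at a lower level than in the other macrophages. UMIs of *Lyz2* and *Tyrobp* do not show the type of a single cell, since the cell with stromal genes described below also held them. *Csf1r* stood at 581, 404 and 340 CPM in S phase cells and *Lyz2*, the most abundant of the list, at 5676, 6729 and 7008 CPM. After thinning to 2000 UMIs, a *Csf1r* UMI was seen in 64.3%, 63.2% and 55.3% of S phase cells, in 77.8%, 63.8% and 57.0% of 0-UMI cells, and in 23.8%, 5.00% and 10.7% of the S100-high cells, which should lack it. The 21, 20 and 28 S100-high cells kept at that depth had medians of 3947, 6219.5 and 9261.5 UMIs before thinning.

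Markers of other cell types were low, with 1 cell as an exception. Summed over S phase cells in Ctrl, LP1 and LP4, the dendritic list had 52.0, 53.9 and 18.2 CPM, against 168, 179 and 197 CPM in 0-UMI cells. The neutrophil list had 173, 135 and 220 CPM, of which *Mmp8* gave 154, 116 and 186 CPM. The lymphoid list had 2.2, 2.1 and 4.2 CPM. The erythroid, platelet and mast cell list had 1952, 1935 and 2038 CPM, nearly all from *Pf4*, a chemokine that macrophages also make, against 2561, 2009 and 2320 CPM in 0-UMI cells. Stromal genes had 2.2, 83 and 7.0 CPM, and 39 of the UMIs in LP1 came from 1 cell with 18 UMIs of *Col1a2*, 9 of *Col1a1* and 7 of *Mgp*. That cell had 18293 UMIs, of which 0 were *Csf1r*, 100 *Lyz2* and 11 *Tyrobp*, and it met the rule through 8 UMIs of *Hist1h1b*, 2 of *Hist1h2ap*, 1 of *Pclaf* and 3 of *Rrm2*.

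The 4 genes that chose the cells encode parts of the replication machinery and its products. *Hist1h1b* is a linker histone H1 and *Hist1h2ap* a core histone H2A, both in the histone cluster of chromosome 13. *Pclaf* binds the sliding clamp PCNA, and *Rrm2* is the small subunit of ribonucleotide reductase, which makes deoxynucleotides. On GRCm38 (mm10, GENCODE vM21) they lie at chr13:21779883-21780625, chr13:21833026-21833507, chr9:65890237-65903266 and chr12:24708241-24714146. Their promoters are shown because the rule rests on them, as 250 bases before to 10 bases after the start site, 5′ to 3′ on the gene's strand (RefSeq, GRCm38.p6), with *Hist1h2ap* matched by position to *H2ac24*. Capitals mark matches, on either strand, to a CCAAT box, to an E2F site spelled TTTNNCGC, to a TATA box spelled out in full as the 6 letters TATAAA, or to the cell cycle homology region of many genes of mitosis, TTTGAA. The windows lie at chr13:21780616-21780875 (minus strand), chr13:21833466-21833725 (minus), chr9:65890073-65890332 (plus) and chr12:24708004-24708263 (plus).
Hist1h1b: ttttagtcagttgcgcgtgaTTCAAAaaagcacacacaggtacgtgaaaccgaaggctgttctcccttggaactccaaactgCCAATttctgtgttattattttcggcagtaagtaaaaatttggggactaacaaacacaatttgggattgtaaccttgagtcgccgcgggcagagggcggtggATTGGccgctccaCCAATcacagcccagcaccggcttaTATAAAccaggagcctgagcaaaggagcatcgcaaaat
Hist1h2ap: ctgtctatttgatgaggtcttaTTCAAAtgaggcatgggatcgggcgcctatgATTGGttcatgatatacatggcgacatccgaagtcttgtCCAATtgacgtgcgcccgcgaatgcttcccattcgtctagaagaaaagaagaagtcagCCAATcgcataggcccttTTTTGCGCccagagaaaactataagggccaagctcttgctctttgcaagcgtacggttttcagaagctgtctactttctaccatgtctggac
Pclaf: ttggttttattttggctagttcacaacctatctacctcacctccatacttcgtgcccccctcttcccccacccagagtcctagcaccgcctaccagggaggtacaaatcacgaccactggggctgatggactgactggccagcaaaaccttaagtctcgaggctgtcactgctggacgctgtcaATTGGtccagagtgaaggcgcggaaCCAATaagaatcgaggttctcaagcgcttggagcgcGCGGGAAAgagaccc
Rrm2: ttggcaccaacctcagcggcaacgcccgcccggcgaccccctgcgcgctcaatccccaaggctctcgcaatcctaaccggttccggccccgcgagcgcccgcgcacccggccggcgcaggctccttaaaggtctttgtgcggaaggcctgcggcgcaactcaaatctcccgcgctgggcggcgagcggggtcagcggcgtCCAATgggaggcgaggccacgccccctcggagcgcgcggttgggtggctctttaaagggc

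All 4 windows hold a CCAAT match, and 3 of the genes hold an E2F match when the window is taken to 50 bases after the start, the one of *Hist1h1b* lying beyond the printed bases at 39. Over all 32851 promoters of that length, 5.17% held the E2F letters, 37.4% a CCAAT box, 13.6% TATAAA and 17.9% TTTGAA, and counted over 27025 genes with any promoter the E2F share was 5.93%. Of the origin licensing genes, 57.1% of 14 matched genes held the E2F letters, of the replication fork genes 38.1% of 21, and of genes of G2 and mitosis 7.41% of 27. The cell cycle homology letters were held by 35.7%, 9.52% and 85.2% of the same lists, most often by genes of G2 and mitosis. Of 62 histone genes, 85.5% held a CCAAT box and 56.5% TATAAA. A match describes letters and does not show binding.

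The levels of the rule genes differed between libraries in the members they chose. *Hist1h1b* stood at 988, 674 and 437 CPM in Ctrl, LP1 and LP4, and *Hist1h2ap* at 702, 328 and 195 CPM. *Pclaf* stood at 115, 122 and 104 CPM and *Rrm2* at 93.1, 108 and 71.4 CPM. In the chosen cells the histone pair stood lower in each treated library, while *Pclaf* and *Rrm2* lay closer together. These genes chose the cells, and the fixed limit on their UMIs is a lower level in the deeper treated libraries. No difference between libraries in histone expression is therefore read from these levels. Reads of the histone genes are also uncertain because near-identical copies can share them. The pair gave 89.0%, 81.3% and 78.3% of the rule UMIs. All 4 genes were seen in 15 of 59, 15 of 38 and 10 of 38 cells, and the histone pair was at 0 UMIs in 1, 1 and 7 cells.

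The threshold of 5 UMIs means different levels at different depths. In a cell of the median depth of its class, 5 UMIs are 651, 423 and 254 CPM in Ctrl, LP1 and LP4. The rule genes summed to a median of 1784, 869 and 447 CPM per S phase cell, and to at most 9446, 4742 and 3780 CPM. The 8, 8 and 10 cells with exactly 5 rule UMIs had 1082, 2103 and 742 CPM over the 19 origin licensing genes, and the 19, 9 and 22 cells just outside, with 4, had 1146, 1452 and 403 CPM. At the other limit, the 35, 21 and 16 cells with 1 UMI of the G2 genes had 2089, 1533 and 1137 CPM over the other genes of G2 and mitosis, and the 38, 37 and 11 cells just outside, with 2, had 2552, 1846 and 1404 CPM. Cells just outside each limit also carried these transcripts above 0-UMI cells. They were set apart from 0-UMI cells by their counts of cycle genes, so whether the class is a separate type was not tested.

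The share of S phase cells among cells that passed the S100 limit was 0.977% (0.745 to 1.26) in Ctrl, 0.754% (0.534 to 1.03) in LP1 and 0.819% (0.580 to 1.12) in LP4. The 3 intervals overlap. The limit on the G2 genes set most of this share: 314 Ctrl, 371 LP1 and 243 LP4 cells had 5 or more rule UMIs at any level of the G2 genes (5.20%, 7.36% and 5.23%), and the limit left out 81.2%, 89.8% and 84.4% of them. Because a deeper cell reaches both limits sooner, each cell was also thinned before the rule was applied. At 4000 UMIs, which left out 1731, 124 and 129 shallower cells, the share was 2.07% (1.66 to 2.54), 1.99% (1.62 to 2.42) and 1.37% (1.05 to 1.76). At 2000 UMIs, which left out 111, 9 and 45 cells, it was 1.75% (1.44 to 2.12), 2.01% (1.64 to 2.43) and 1.61% (1.27 to 2.02). The order of the libraries differed between these depths. Stricter limits without thinning set LP4 below Ctrl: with 10 or more rule UMIs the share was 0.613% (0.432 to 0.844), 0.456% (0.289 to 0.684) and 0.215% (0.103 to 0.396), and with the rule UMIs also at least 0.05% of the cell's UMIs it was 0.927%, 0.615% and 0.366%. In both settings the intervals of Ctrl and LP4 did not overlap. With 3 or more UMIs of *Pclaf* and *Rrm2* alone it was 0.381%, 0.655% and 0.754%, the opposite order, with overlapping intervals. With no limit on the G2 genes the interval of LP1, at 7.36%, stood clear of those of Ctrl and LP4. The order of the shares thus depended on the limits, and no order of the libraries was read from them.

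**Figure D1:**
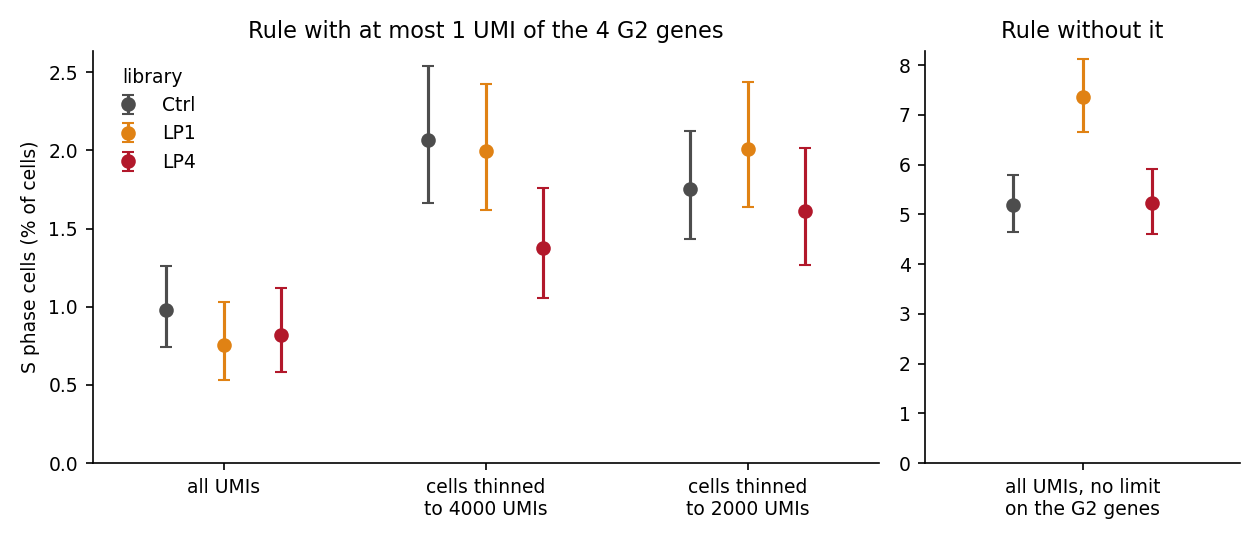
Share of S phase cells (percent of cells that passed the S100 limit, vertical axis) in Ctrl, LP1 and LP4 with all UMIs and after thinning each cell to 4000 or 2000 UMIs, and on the right with no limit on the G2 genes; bars are exact binomial 95% intervals. The 3 libraries lie at 0.977%, 0.754% and 0.819% with overlapping bars, and the bar of LP1, at 7.36%, stands clear of the others, among the settings drawn, only where the limit on the G2 genes is dropped.

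Set against 0-UMI cells, S phase cells carried the transcripts of DNA replication far beyond the genes of the rule. Origin licensing genes, which load and fire the replicative helicase, summed to 1545 (1433 to 1662), 1585 (1474 to 1701) and 727 (666 to 792) CPM in Ctrl, LP1 and LP4, against 239, 267 and 145 CPM in 0-UMI cells. Replication fork genes summed to 2025, 2087 and 1359 CPM against 467, 534 and 449 CPM. Among 7191 genes with at least 10 CPM in 1 of the classes in every library, 253 were over 2-fold higher in S phase cells in all 3 libraries (3.52%) and 23 were over 2-fold lower (0.320%), with a median log2 ratio of 0.06, 0.09 and 0.10. TMM scaling moved every S phase ratio by -0.36, -0.36 and -0.19 on the log2 scale and gave 176 higher and 61 lower genes, and median-of-ratios scaling moved them by -0.13, -0.18 and -0.20 and gave 196 and 42. Since a gene could pass the minimum through the class where it was high, the counts below describe lists and support nothing on their own.

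Of 19 licensing genes, 14 passed the minimum and 12 were over 2-fold higher in all 3 libraries, with median log2 ratios of 2.68, 2.67 and 2.56. The helicase subunit *Mcm5* stood at 158, 91.3 and 77.0 CPM against 16.0, 13.9 and 8.36 CPM in 0-UMI cells. *Mcm7*, another subunit, stood at 188, 133 and 50.4 CPM against 12.7, 12.2 and 4.75 CPM, and *Mcm10*, a firing factor, at 80.2, 51.9 and 19.6 CPM against 3.53, 3.85 and 1.36 CPM. In each of these genes the S phase sum lay above the 0-UMI sum in every library. *Cdt1*, the helicase loader, stood at 60.7, 91.3 and 32.2 CPM against 22.5, 29.0 and 5.80 CPM, and *Gmnn*, whose product geminin blocks *Cdt1* after origins have fired, at 154, 174 and 54.6 CPM against 24.0, 28.3 and 7.09 CPM.

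At the fork, 20 of 25 genes passed the minimum and 16 were over 2-fold higher throughout (medians 2.44, 2.42 and 2.14). *Clspn*, the checkpoint adaptor claspin that travels with the fork, had the widest gap of the ones named here, at 214, 189 and 46.2 CPM against 6.91, 6.80 and 1.22 CPM. *Lig1*, the ligase that joins Okazaki fragments, stood at 219, 151 and 115 CPM against 19.8, 15.9 and 9.89 CPM, and *Pola1*, the catalytic subunit of the primase-coupled polymerase, at 141, 185 and 71.4 CPM against 30.1, 31.6 and 9.29 CPM. The sliding clamp *Pcna*, often used as a mark of replicating cells, separated the classes much less. It stood at 230, 378 and 529 CPM in S phase cells and at 89.4, 166 and 195 CPM in 0-UMI cells, a log2 ratio of 1.36 (1.07 to 1.64), 1.19 (0.97 to 1.40) and 1.44 (1.29 to 1.59). Its level in 0-UMI cells of LP4 was close to that in S phase cells of Ctrl.

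Genes of nucleotide supply were split. Of 13, 12 passed the minimum and 7 were over 2-fold higher throughout (medians 1.77, 1.67 and 1.96). *Rrm1*, the large subunit of ribonucleotide reductase, stood at 184, 153 and 105 CPM against 19.7, 18.1 and 14.8 CPM, *Tyms*, which makes thymidylate, at 47.7, 64.3 and 39.2 CPM against 3.68, 4.38 and 2.60 CPM, and the S phase kinase *Tk1* at 34.7, 76.7 and 37.8 CPM against 2.90, 2.31 and 1.41 CPM. *Samhd1*, which degrades deoxynucleotides and restricts viruses, ran the other way, at 149, 143 and 557 CPM in S phase cells against 193, 176 and 829 CPM. The salvage kinase *Dck* stood at 21.7, 29.0 and 49.0 CPM against 5.91, 8.05 and 35.7 CPM, so that its gap was small in LP4.

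Chromatin assembly and the copying of DNA methylation followed replication. Of 17 genes, 16 passed the minimum and 12 were over 2-fold higher in all 3 libraries (medians 2.36, 2.21 and 1.67). *Uhrf1*, which brings the maintenance methyltransferase to newly copied DNA, stood at 160, 145 and 37.8 CPM against 8.36, 7.66 and 2.99 CPM, and the methyltransferase *Dnmt1* at 243, 203 and 85.4 CPM against 59.3, 55.7 and 22.1 CPM. *Slbp*, which binds the stem-loop of histone messages, stood at 102, 89.2 and 40.6 CPM against 20.7, 19.2 and 19 CPM. *H2afz*, a histone variant made throughout the cycle, had the smaller gap of 769, 823 and 705 CPM against 382, 458 and 532 CPM.

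Of 16 repair and checkpoint genes, 11 passed the minimum and all 11 were over 2-fold higher throughout, with medians of 3.19, 2.87 and 3.28. *Brca1*, which acts in homologous recombination, stood at 82.3, 99.6 and 15.4 CPM against 5.57, 4.38 and 1.5 CPM. It passes the minimum only through S phase cells. Of 14 genes that control entry into S phase, 13 passed and 10 were over 2-fold higher (medians 2.89, 3.25 and 2.36). They include the E-type cyclin *Ccne2* (54.2, 33.2 and 25.2 CPM against 1.86, 1.37 and 0.836 CPM) and the factor *E2f1* (119, 97.5 and 42.0 CPM against 19.2, 16.7 and 8.17 CPM).

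The cyclins and inhibitors that act before S phase differed less between the classes. *Ccnd1*, the D-type cyclin that answers growth factors, stood at 208, 361 and 143 CPM against 83.9, 116 and 54.7 CPM, and its partner *Cdk4* at 97.5, 104 and 60.2 CPM against 45.1, 49.5 and 28.9 CPM. *Cdk6* stood at 403, 525 and 345 CPM against 346, 392 and 347 CPM, and the inhibitor *Cdkn1a* at 490, 664 and 382 CPM against 441, 549 and 442 CPM. Of 8 measured genes of CDK inhibitors, 0 were past 2-fold in all 3 libraries in either direction, with medians of -0.09, -0.03 and -0.34 whose sign changed under some of the alternatives.

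**Figure D2:**
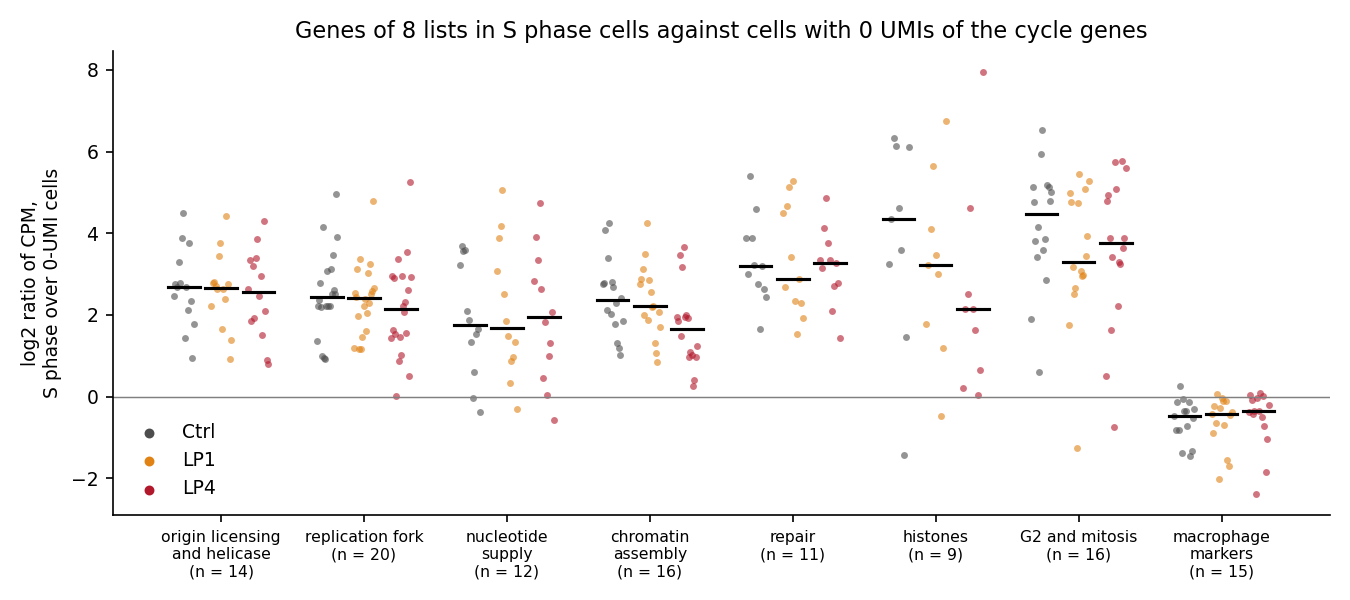
Log2 ratio of CPM in S phase over 0-UMI cells (vertical axis) for each measured gene of 8 lists in Ctrl, LP1 and LP4; each point is 1 gene and black bars are list medians. Licensing, fork and repair genes lie well above 0 in all 3 libraries, with medians from 2.14 to 3.28, and macrophage genes lie below 0, with medians of -0.47, -0.42 and -0.36.

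The histone genes outside the rule were as marked, in few genes. Only 9 of 65 passed the minimum, of which 8 were higher in S phase cells in all 3 libraries and 6 over 2-fold higher (medians 4.34, 3.22 and 2.15). Against all other kept cells, which include cells in G2 or mitosis, the medians were 2.23, 0.92 and 0.84, the lowest of the alternatives. *Hist1h1a*, a linker histone, stood at 56.3, 74.7 and 53.2 CPM against 0.82, 0.70 and 0.21 CPM, log2 ratios of 6.11 (5.23 to 7.0), 6.74 (5.97 to 7.54) and 7.95 (6.88 to 9.19), which rest on few UMIs in 0-UMI cells. *Hist1h2ae*, an H2A gene, stood at 284, 99.6 and 112 CPM against 4.01, 1.98 and 4.56 CPM. *Hist1h4d*, an H4 gene, stood at 258, 47.7 and 50.4 CPM against 10.6, 4.32 and 11.4 CPM. The exception was *Hist1h2bc*, at 6.50, 27.0 and 40.6 CPM against 17.5, 37.5 and 39.3 CPM. Of the 67 histone genes in the matrices, 54 lie on chromosome 13 between 21715763 and 23934851, and counts of single copies are uncertain where the copies share sequence. Replication-dependent histone messages end in a stem-loop and mostly lack the poly(A) tail from which this method primes its reads.

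Although at most 1 UMI of the 4 G2 genes was allowed, S phase cells were not free of transcripts of the later cycle. The other genes of G2 and mitosis summed to 1937 (1812 to 2068), 1361 (1259 to 1469) and 961 (890 to 1036) CPM in the 3 libraries. In 0-UMI cells they summed to 232, 223 and 312 CPM, and in the 220, 300 and 203 cells with 5 or more UMIs of the G2 genes to 4843, 4309 and 4023 CPM. S phase cells thus lay between both. Of 30 genes, 16 passed the minimum and 14 were over 2-fold higher than in 0-UMI cells throughout (medians 4.46, 3.31 and 3.76). Against all other kept cells the medians were 1.97, 0.95 and 0.92, again the lowest of the alternatives. *Top2a*, the topoisomerase that untangles copied chromosomes, stood at 275, 243 and 164 CPM, against 7.88, 7.66 and 5.88 CPM in 0-UMI cells and 727, 594 and 588 CPM in G2 or mitosis cells. *Mki67*, the Ki-67 antigen, stood at 518, 431 and 347 CPM against 140, 128 and 243 CPM in 0-UMI cells. *Stmn1*, which destabilizes microtubules, and *Smc2*, a condensin subunit, were among the 10 genes that came highest by the ratio nearest 0 over the 3 libraries, among those with at least 50 CPM in every library, at 451, 373 and 183 CPM against 50.3, 46.1 and 25.1 CPM and at 199, 166 and 123 CPM against 16.9, 17.7 and 11.9 CPM. The other 8 were *Hist1h1a*, *Top2a*, *Hist1h2ae*, *Diaph3*, *Mcm7*, *Lig1*, *Atad2* and *Rrm1*.

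Against G2 or mitosis cells the lists lay in different directions, and some changed direction between libraries. Licensing genes had a median log2 ratio of 0.91 in Ctrl and 0.75 in LP1, and fork genes of 0.64 and 0.49, all higher in S phase cells. In LP4 these medians were 0.13 and 0.03. Repair genes had medians of 0.70, 0.33 and -0.52, and chromatin genes of 0.30, 0.24 and -0.57. Genes that control entry into S phase had 0.69, 0.26 and -0.12, and nucleotide genes 0.03, 0.29 and -0.11. The 4 rule genes summed to 1898, 1232 and 807 CPM in S phase cells. In G2 or mitosis cells they summed to 2584, 2343 and 2590 CPM, so these transcripts are not particular to the S phase class. Genes of G2 and mitosis had medians of -1.36, -1.88 and -2.14, which the choice of both classes fixes in part. The histones outside the rule were lower in S phase than in G2 or mitosis cells, with summed levels of 1633, 765 and 668 CPM against 3143, 1789 and 2368 CPM and medians of -0.99, -1.47 and -1.82. Histone levels were thus highest in cells that the limit on the G2 genes left out. Macrophage genes hardly differed between both cycling classes, with medians of 0.05, -0.09 and 0.16.

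**Figure D3:**
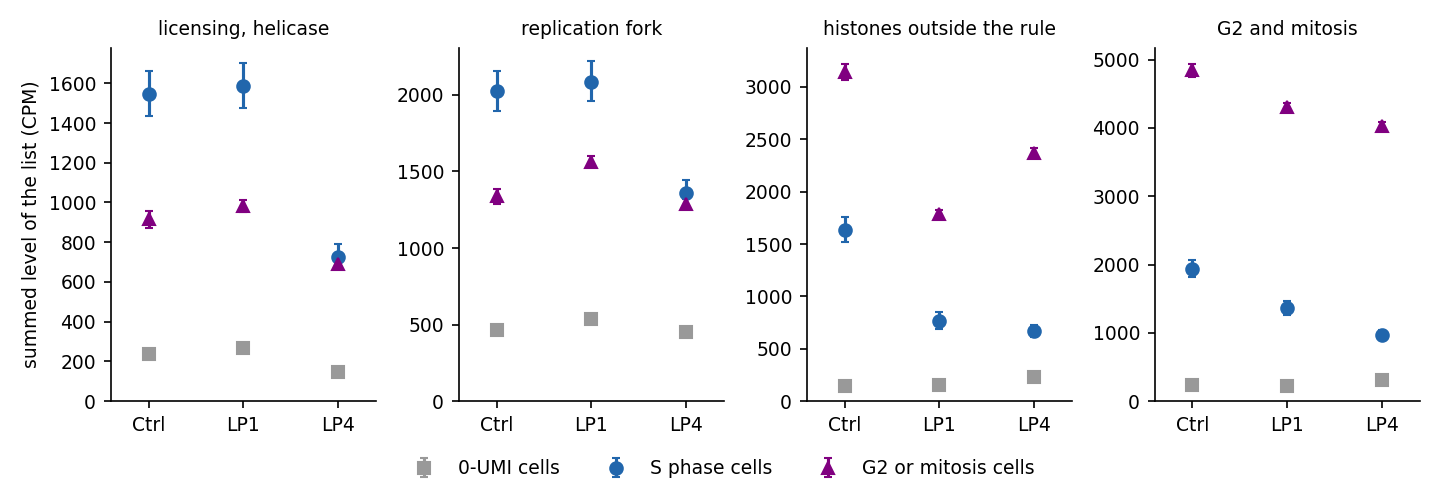
Summed CPM (vertical axis) of the licensing, fork, other histone and other G2 and mitosis genes in 0-UMI, S phase and G2 or mitosis cells of Ctrl, LP1 and LP4; bars are exact Poisson 95% intervals. Licensing and fork levels are highest in S phase cells, in LP4 with bars that overlap those of G2 or mitosis cells, while histones reach 3143, 1789 and 2368 CPM in G2 or mitosis cells against 1633, 765 and 668 CPM in S phase cells.

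The macrophage program was lower in S phase cells without being lost. All 15 macrophage genes passed the minimum, and 11 were lower than in 0-UMI cells in all 3 libraries. Of the 15, 2 were over 2-fold lower, beside 0.320% of all genes, and the medians were -0.47, -0.42 and -0.36. Under TMM scaling these medians were -0.83, -0.78 and -0.55, and with the 0-UMI cells weighted to the depths of S phase cells they were -0.37, -0.35 and -0.22. The efferocytosis receptor *Mertk* stood at 28.2, 10.4 and 7.0 CPM against 72.9, 42.2 and 36.7 CPM, and the complement gene *C1qa* at 28.2, 18.7 and 18.2 CPM against 77.2, 54.5 and 30.0 CPM. The integrin gene *Itgam* was nearly level, at 180, 158 and 255 CPM against 186, 191 and 259 CPM, and so was *Fcer1g*, at 1668, 1587 and 1604 CPM against 1825, 1711 and 1598 CPM.

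Genes whose higher class reached 50 CPM in every library were ranked by the ratio nearest 0 over the 3 libraries, and by this rank *Apoe* came first among the lower ones. This lipid carrier stood at 88.8, 39.4 and 43.4 CPM in S phase cells against 407, 276 and 211 CPM, a log2 ratio of -2.20 (-2.68 to -1.75), -2.81 (-3.54 to -2.16) and -2.28 (-2.84 to -1.78). The chaperone of MHC class II, *Cd74*, stood at 45.5, 39.4 and 11.2 CPM against 129, 123 and 138 CPM, and in LP4 its ratio of -3.62 (-4.83 to -2.64) lay below that of *Apoe*. The selenium carrier *Selenop* stood at 262, 201 and 303 CPM against 600, 543 and 659 CPM, and the costimulatory ligand *Cd86* at 43.3, 68.5 and 44.8 CPM against 188, 143 and 89.1 CPM. The other 6 of the 10 lowest by this rank were the chemokine receptor *Ccr1*, *Hacd4*, *Fcgrt*, the lipid chaperone *Fabp4*, *Mfge8*, which bridges apoptotic cells to phagocytes, and *Mgst1*. Not every lipid gene was lower: *Lpl*, lipoprotein lipase, stood at 3232, 3377 and 3322 CPM against 1943, 2437 and 2098 CPM. *Cd74* is also a dendritic marker and can mark a mixture of cells, and 5, 5 and 8 S phase cells held a UMI of *Cd74* or *H2-Aa*.

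S phase cells varied widely among themselves. Per cell, licensing genes had a median of 1531 CPM in Ctrl (lowest 0, highest 5057), 1654 in LP1 (219 to 3137) and 668 in LP4 (0 to 2384), against medians of 110, 143 and 93.5 CPM in 0-UMI cells. In LP4, 5 of the 38 cells had 0 licensing UMIs. The lower quartile of S phase cells in LP4 was 152 CPM for licensing and 525 CPM for fork genes. These lay under the upper quartiles of LP4 0-UMI cells, 187 and 570 CPM. In Ctrl the lower quartiles were 1016 and 1390 CPM. The S phase label is thus less certain for a part of the LP4 cells. Other histones had medians of 1208, 551 and 255 CPM and highest values of 10276, 2550 and 3013 CPM. Their medians in 0-UMI cells were 0, 106 and 165 CPM. In LP4 the 7 cells without UMIs of the histone pair had 1163 (985 to 1363) CPM of licensing genes and 84.2 (42.0 to 151) CPM of other histones, while the 31 cells with the pair had 629 (567 to 697) and 799 CPM. *Ccnd1* differed in the same way, with 329 CPM in the 7 cells and 101 CPM in the 31. The split reads a part of the rule, since a cell without the pair could enter only through *Pclaf* and *Rrm2*, and nothing is read from it.

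In the lipoprotein response, S phase cells of LP4 were compared with those of Ctrl. Of 8457 genes with at least 10 CPM in either library, 1219 (14.4%) were over 2-fold higher and 1274 (15.1%) over 2-fold lower, and TMM scaling gave 1423 and 988. In 0-UMI cells 11% and 10.6% of 7873 genes passed. The shares in S phase cells include counting noise of small sums. In data simulated for this contrast (7895 genes), 6.63% of the genes left unchanged passed 2-fold, a share not split by direction. The simulation held no spread between cells, so it does not give the noise that such spread adds. The log2 ratio of the 8457 genes in S phase cells had a median of -0.06. In LP1 over Ctrl, 791 of 8545 genes were over 2-fold higher (9.26%) and 658 lower (7.70%), beside 0.711% and 0.487% of 7590 genes in 0-UMI cells with their larger sums, and response and counting noise cannot be told apart in most single genes at this depth.

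Interferon-stimulated genes had much higher summed levels at 4 hours. Their 19 genes in the matrices summed to 999 (909 to 1094) CPM in Ctrl and 608 (540 to 682) CPM in LP1, and to 9349.5 (9127 to 9577) CPM in LP4. In 0-UMI cells the sums were 910, 783 and 15222 CPM, and in G2 or mitosis cells 570, 636 and 9913 CPM. In Ctrl the sum was thus highest in S phase cells, and in LP4 it was lowest in them. Per cell, the median was 336, 241 and 9014 CPM in S phase cells and 407, 327 and 13784 CPM in 0-UMI cells, so a few S phase cells of Ctrl and LP1 held much of their class's sum. Of the 19 genes, 17 were over 2-fold higher in S phase cells of LP4, beside 14.4% of all genes. Their median log2 ratio was 2.47 beside 3.38 in 0-UMI cells. *Rsad2* (viperin, an antiviral enzyme) stood at 121, 76.7 and 3133 CPM, a log2 ratio of 4.69 (4.31 to 5.10), and the antiviral RNA sensor *Ifit1* at 21.7, 24.9 and 1206 CPM, a ratio of 5.80 (4.91 to 6.86). The guanylate-binding protein *Gbp5* stood at 13.0, 14.5 and 710 CPM, and the chemokine *Cxcl10* at 8.66, 4.15 and 738 CPM. In each of these 4 genes LP4 stood far above both other libraries.

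Most interferon genes had a smaller ratio in S phase cells than in 0-UMI cells of the same libraries. Among 5483 genes with at least 10 UMIs in all 4 sums, the LP4 response of S phase cells exceeded that of 0-UMI cells by over 1 on the log2 scale in 126 (2.30%) and fell short by over 1 in 169 (3.08%). Of the 12 interferon genes among them, 11 had the smaller response in S phase cells and 6 fell short by over 1, with a median of -0.90 beside 0.01 over all genes. The median lay between -1.47 and -0.47 under the alternatives. *Ifit2* showed it in full: it stood at 60.7, 33.2 and 399 CPM in S phase cells, a log2 ratio of 2.72 for LP4 beside 4.38, a difference of -1.66 (-2.22 to -1.09). The ubiquitin-like *Isg15* stood at 113, 76.7 and 573 CPM, with 2.35 beside 3.38 and a difference of -1.03 (-1.45 to -0.61), and its protease *Usp18* at 32.5, 10.4 and 133 CPM with a difference of -1.36. *Irf7*, which amplifies the interferon response, stood at 169, 87.1 and 111 CPM in S phase cells, a ratio of -0.61 (-1.08 to -0.14) beside 0.41, and without the cell with the most *Irf7* UMIs in each library the ratio was -0.34 (-0.87 to 0.19). *Isg15* had 2.88 and *Ifit2* 2.90 without those top cells, both still below the ratio in 0-UMI cells. *Ifit1* was an exception, with 5.80 beside 5.63.

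Shares of cells with a UMI describe the level in LP4, not the response. After thinning to 2000 UMIs, *Ifit1* was detected in 24 of 38 S phase cells of LP4 (63.2%, 46.0 to 78.2) and in 87.5% (86.4 to 88.6) of 0-UMI cells. *Cmpk2*, a mitochondrial nucleotide kinase next to *Rsad2* in the genome, was detected in 44.7% (28.6 to 61.7) against 63.8%. For *Rsad2* (84.2%, 68.7 to 94.0, against 93.2%) and *Isg15* (57.9%, 40.8 to 73.7, against 69.0%) the interval of S phase cells holds the share of 0-UMI cells, so no difference was detectable. In the S100-high cells of LP4 the shares were 14.3% for *Ifit1*, 3.57% for *Cmpk2*, 14.3% for *Rsad2* and 10.7% for *Isg15*. Without thinning, S phase cells were the deeper class, at a median of 19679.5 against 10971.5 UMIs, and shares were 86.8% against 97.5% for *Ifit1*, 84.2% against 88.2% for *Cmpk2*, 38 of 38 against 97.4% for *Rsad2* and 38 of 38 against 96.1% for *Isg15*. Of these 4, only *Ifit1* had its whole interval (71.9 to 95.6) below the share of 0-UMI cells at both depths.

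Cytokine and chemokine genes moved in both directions at 4 hours. Of 15 measured genes, 11 were over 2-fold higher and 2 over 2-fold lower in LP4, beside 14.4% and 15.1% of all genes. Their median was 1.96 beside 1.65 in 0-UMI cells. *Ccl4*, which draws monocytes, stood at 21.7, 166 and 2329 CPM, a log2 ratio of 6.75 (5.87 to 7.81) beside 4.34. Its neighbour *Ccl3* stood at 36.8, 91.3 and 759 CPM, a ratio of 4.37 (3.67 to 5.16) beside 2.34. Both were higher in LP4 in each class, but S phase cells of Ctrl started lower, since Ctrl 0-UMI cells had 131 CPM of *Ccl4* and 152 CPM of *Ccl3*, and the LP4 levels of 2667 and 766 CPM in 0-UMI cells were close to those of S phase cells. *Ccl7* stood at 56.3, 143 and 192 CPM in S phase cells and 173, 266 and 129 CPM in 0-UMI cells, ratios of 1.77 (1.16 to 2.43) and -0.43. The neutrophil chemokine *Cxcl2* was lower in LP4, at 3602, 3924 and 1504 CPM, and so was *Tnf*, at 890, 946 and 373 CPM. *Il1b* stood at 251, 207 and 742 CPM, and *Cxcl3* at 2.17, 16.6 and 500 CPM.

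Of 13 measured antimicrobial and metabolic effector genes, 12 were over 2-fold higher in LP4, beside 14.4% of all genes. Their median was 2.45 beside 2.59 in 0-UMI cells. *Acod1*, which makes itaconate, stood at 323, 224 and 1769 CPM, the checkpoint ligand *Cd274* at 113, 116 and 884 CPM, and the mitochondrial superoxide dismutase *Sod2* at 86.6, 168 and 689 CPM. *Nos2*, the inducible nitric oxide synthase, had 0 UMIs in S phase cells of Ctrl and LP1 and 202 CPM in LP4, at least 4.96 higher on the log2 scale than the 3 counts that a count of 0 allows in Ctrl. After thinning, *Nos2* was detected in 21.1% (9.6 to 37.3) of S phase and 19% of 0-UMI cells of LP4, and in 3.57% of S100-high cells. Without thinning it was detected in 55.3% of S phase and 34.7% of 0-UMI cells. The interval of the thinned share is wide and holds that of 0-UMI cells.

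Immediate early genes, the first transcription factors to answer a stimulus, were lower at 4 hours. Of 14 measured genes, 11 were over 2-fold lower in LP4, beside 15.1% of all genes. Their median was -2.79 beside -3.38 in 0-UMI cells. *Fos* stood at 557, 336 and 30.8 CPM, a ratio of -4.18 (-4.87 to -3.55) for LP4. *Egr1* stood at 175, 299 and 0 CPM, and its UMIs were in 14.3%, 39.5% and 0 of 38 of the thinned cells. *Jun*, the partner of *Fos*, had 251 CPM in Ctrl and 19.6 CPM in LP4. *Atf3*, a repressor of inflammatory genes, ran against the list, at 223, 214 and 415 CPM, a ratio of 0.89 (0.57 to 1.23) beside -0.61, with 74 of its 296 LP4 UMIs in 1 cell. Of the dual specificity phosphatases that switch off MAP kinases, *Dusp1* stood at 279, 504 and 207 CPM and *Dusp5* at 288, 220 and 4.20 CPM, the last from 3 UMIs. *Dusp1* was detected in 37.5%, 63.2% and 26.3% of thinned S phase cells, beside 53.0%, 67.6% and 24.1% of 0-UMI cells. Of 12 measured genes of NF-κB feedback, 2 were over 2-fold higher in LP4, a share near the 14.4% of all genes, with a median of 0.08 beside 0.43.

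**Figure D4:**
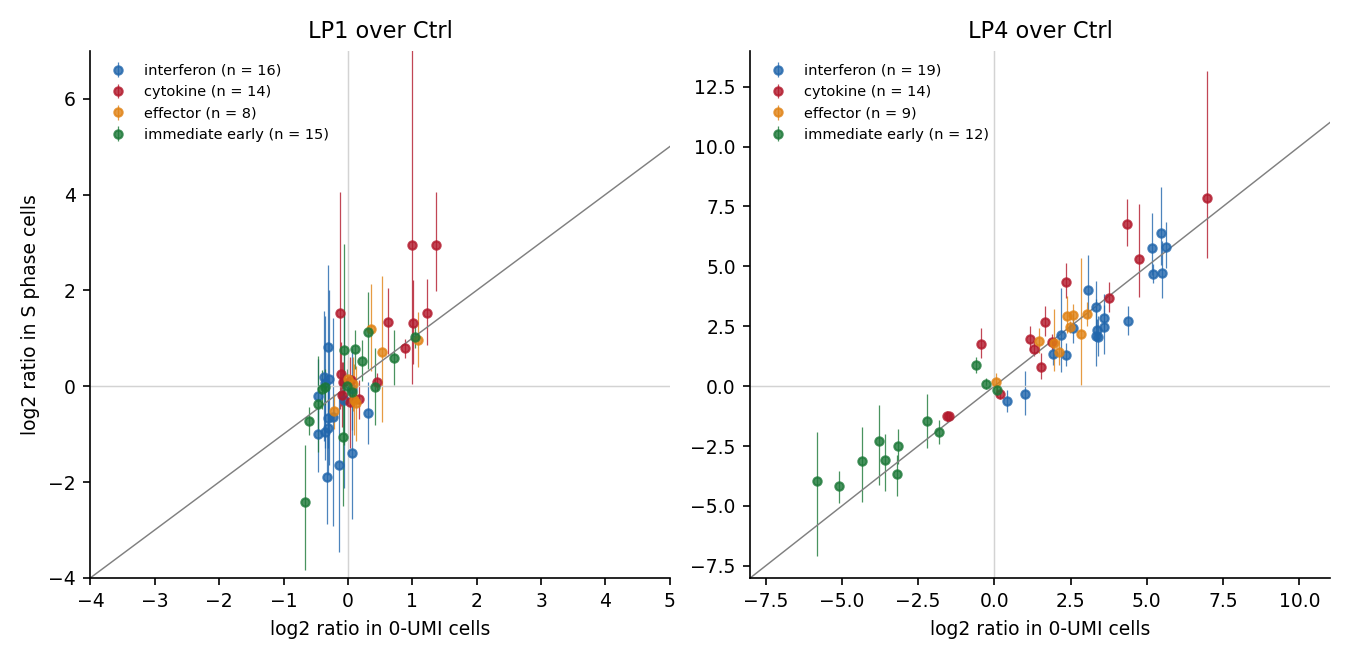
Log2 ratio of LP1 over Ctrl (left) and LP4 over Ctrl (right) in S phase cells (vertical axis) against the same ratio in 0-UMI cells (horizontal axis) for interferon, cytokine, effector and immediate early genes with a UMI in all 4 sums; vertical bars are 95% counting intervals, 1 of which runs past the left panel, and the grey line marks equal ratios. In LP4 most interferon genes lie under the line and *Ccl3*, *Ccl4* and *Ccl7* above it, while in LP1 most points lie near 0 in 0-UMI cells and spread within wide bars in S phase cells.

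At 1 hour the listed genes of S phase cells differed less from Ctrl. Of 14 measured cytokine genes, 6 were over 2-fold higher in LP1, beside 9.26% of all genes in S phase cells. Their median was 0.52 beside 0.31 in 0-UMI cells. Of 17 measured interferon genes, 4 were over 2-fold lower, beside 7.70% of all genes, and 0 higher. Their median was -0.65 beside -0.31, and the median difference between the classes lay between -0.63 and -0.22 under the alternatives. *Ccl4* had a ratio of 2.94 (1.98 to 4.05) beside 1.37, and *Ccl3* of 1.31 (0.47 to 2.21) beside 1.01. *Junb* stood at 474 CPM in Ctrl and 965 CPM in LP1, and *Dusp1* had a ratio of 0.85. The LP1 response of S phase cells exceeded that of 0-UMI cells by over 1 in 56 of 5368 genes (1.04%) and fell short in 58 (1.08%). Of the 5 genes with the largest ratio by size in LP1, *Csmd1*, *Nav3*, *Pdzrn3* and *Adamts9* owed 47, 55, 49 and 40 UMIs to the cell with stromal genes described above, and *Dio2* owed 27 of 29 UMIs to another cell, so they describe single cells. The 5 with the smallest ratio were *Hist2h2ac* (-3.12), *Hist1h4h* (-2.57), *Hist1h4d* (-2.43), *Fosb* (-2.43) and *Hist2h2aa1* (-2.33), of which 4 are histones.

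Transcripts of the cycle itself also differed between libraries within the cells that the rule chose. In LP4 a part of these cells had licensing and fork levels under the upper quartile of 0-UMI cells, as given above. Over all genes in S phase cells, 14.4% were over 2-fold higher and 15.1% lower in LP4. In LP4 over Ctrl, 9 of 18 measured licensing genes were over 2-fold lower and 1 higher (median -0.97 beside -0.83 in 0-UMI cells), and so were 12 of 24 fork genes (1 higher, median -1.0 beside -0.79), 12 of 15 repair genes (median -1.48 beside -1.40) and 12 of 17 chromatin genes (1 higher, median -1.33 beside -0.60). Genes of G2 and mitosis had 16 of 27 lower and 1 higher, with a median of -1.28 beside -0.86. Genes that control entry into S phase had 8 of 14 lower and 1 higher, with a median of -1.09 beside -0.65. The nucleotide list was near level, with 2 of 12 higher and 1 lower, near or under the shares of all genes. Its median was -0.13 beside -0.52 and lay between -0.32 and 0.22 under the alternatives. *Pcna* was higher instead, at 529 CPM against 230 CPM in Ctrl, a ratio of 1.21 (0.89 to 1.53) beside 1.12. *Hmgb2*, a chromatin protein, stood at 390, 205 and 63.0 CPM, a ratio of -2.63.

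The depth of the libraries differed along with treatment, and the 5 UMIs of the rule are a lower level in deeper cells. The 0-UMI cells, whose medians are given beside those of S phase cells, were also chosen by a count. Holding 0 UMIs of the cycle genes is a stricter limit in deeper cells. The median depth of 0-UMI cells was 4869 UMIs in Ctrl and 10971.5 UMIs in LP4, so their medians are not a reference free of depth. When S phase and 0-UMI cells were chosen after thinning every cell to 4000 UMIs, an alternative added after seeing the data, the LP4 medians in S phase cells were -0.55 for licensing, -0.63 for fork, -0.84 for repair, -0.48 for chromatin and 0.01 for genes of G2 and mitosis. These medians were all nearer 0 than those of cells chosen on all UMIs. The median difference between the responses of S phase and 0-UMI cells, over genes with at least 10 UMIs in all 4 sums, also turned, from -0.23 to 0.20 for licensing, -0.10 to 0.25 for fork, -0.22 to 0.78 for repair, -0.64 to 0.23 for chromatin and -0.65 to 0.90 for genes of G2 and mitosis. No direction between the classes is therefore read for these lists. For genes that control entry into S phase the median difference was -0.92 and lay between -1.03 and -0.007 under the alternatives. The part of depth in the ratios was not tested.

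Histone ratios at 4 hours lay apart in the 2 classes, both of which were chosen in part on histone UMIs. Over all genes in S phase cells, 7.70% were over 2-fold lower in LP1 and 15.1% in LP4. Of 27 measured histone genes outside the rule, 16 were over 2-fold lower in S phase cells of LP1 (median -1.38 beside -0.58 in 0-UMI cells) and 19 in LP4 (median -1.95 beside -0.01), with 1 higher in each. In 7 histone genes with enough UMIs in all sums, all 7 had the lower LP4 ratio in S phase cells, with a median difference of -1.97 that lay between -2.55 and -0.61 under the alternatives. In LP1 the median difference over 6 such genes was -0.39. *Hist1h1a*, with 9 UMIs in 0-UMI cells of LP4, was left out at 4 hours and ran the other way, with an LP4 ratio of -0.08 beside -1.93. *Hist1h4d* had a ratio of -2.35 (-2.93 to -1.81) beside 0.11, and the linker histone *Hist1h1e*, at 262, 147 and 109 CPM in S phase cells against 21.6, 18.2 and 35.1 CPM in 0-UMI cells, a ratio of -1.26 beside 0.70. Histones are part of the rule, which took cells at lower histone levels from the deeper libraries. With cells chosen after thinning the LP4 median was -0.37. No difference in histone expression between classes or libraries is therefore read from these ratios.

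By size, the 5 genes furthest up in S phase cells of LP4 were *Cxcl3*, with a ratio of 7.85 (5.36 to 13.16) beside 6.97 in 0-UMI cells, *Ccl4*, *Cxcl10*, the nucleoside transporter gene *Slc28a2*, at 2.17, 6.22 and 148 CPM, and *Ifit1*. The 5 furthest down were *Dusp5*, with -6.10 (-8.40 to -4.52) beside -3.19, *Egr1*, *Fosb*, *Fos* and *Plau*, the urokinase gene, which stood at 600, 431 and 39.2 CPM, with -3.94 beside -3.64. All but *Slc28a2* and *Plau* belong to the cytokine, interferon, immediate early and phosphatase lists. *Egr1* had 0 UMIs in S phase cells of LP4, so its ratio is a bound at the floor of 3 counts, and *Dusp5* had 3 UMIs there. The genes whose LP4 response lay furthest below that of 0-UMI cells were *Hist1h4d*, *Hist1h1e*, *Rbl1*, *Slfn8* and *Stard7*. *Rbl1*, a pocket protein that restrains E2F, stood at 62.8, 78.8 and 32.2 CPM in S phase cells against 8.47, 8.30 and 21.1 CPM, a difference of -2.28 (-3.10 to -1.46). *Slfn8*, of the interferon-induced Schlafen family, stood at 78.0, 41.5 and 126 CPM against 36.7, 29.5 and 237 CPM. On the other side stood *Ccl3*, *Ccl4*, *Ccl7*, *Rgs1* and *Gpr183*. *Rgs1* stood at 143, 280 and 221 CPM, but 142 of its 158 UMIs in LP4 came from 1 cell and 7 of 38 cells held any. *Gpr183* had 16 UMIs in LP4, held by 4 of 38 cells, with 7 of them in 1 cell.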

How the data were processed

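RNA of single BMDMs was measured in 1 library each of Ctrl, LP1 and LP4. The authors made the deposited UMI counts with Cell Ranger 7.1.0 on mm10 (version and build per the submitters' processing notes), without normalization, for 32285 genes in the barcodes called as cells. The matrices hold 35749924, 52773906 and 64787139 UMIs in 6123, 5119 and 5039 barcodes.

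The rule that chose S phase cells, its limits and the gene lists were set with earlier results of these data known. UMIs were summed per library and class and scaled to CPM. Intervals are exact Poisson for levels, exact binomial conditional on the total for log2 ratios, Clopper-Pearson for shares and normal for differences of log2 ratios. All are 95% intervals for counting error. A sum of 0 was set to a floor of 3 counts to give a bound. Because each condition is 1 library and the members were chosen on these counts, no test was made. Doublets were scored with Scrublet, which called 0, 1 and 1 cells and so did not work as a caller, and cells with the top 5% of scores, 8, 5 and 0 of them S phase cells, were left out in an alternative.

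The genes named are members of the lists and, by size, the 10 largest and smallest ratios of S phase over 0-UMI cells, the 5 largest and smallest of each treated library over Ctrl, and the 5 on each side whose LP4 response differed most from that of 0-UMI cells, with at least 50 CPM in the higher sum for the first 3 kinds, leaving out the rule genes and mitochondrial, ribosomal protein and unnamed genes. In data simulated from the S phase and 0-UMI sums of Ctrl (7393 genes), 98.0% of 100 genes changed 2-fold and 100% of 100 changed 4-fold came out in the true direction, and the intervals covered 96.2% of true ratios. For S phase cells of LP4 over Ctrl (7895 genes) these were 98.0%, 100% and 96.6%. Alternatives were other thresholds, thinning, references, scalings and minimums. The tools were Python 3.11.15 with numpy 2.4.6, scipy 1.17.1, pandas 2.3.3 and scanpy 1.11.5, and edgeR 4.0.16 in R 4.3.3 for TMM factors. The results for some genes are not reported here.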

Additional observations from a re-analysis of the deposited data

Results flagged for a closer look

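The immediate early, phosphatase, interferon, cytokine, effector, NF-κB feedback, macrophage, subset and CSF1 pathway lists were searched. In 6 of the responses reported here the log2 ratio to Ctrl lay on opposite sides of 0 in S phase and 0-UMI cells, with both counting intervals clear of 0. Whether the classes differ was not tested, since each condition is 1 library. Cycle and histone genes were not searched, and some of them, such as *Hist1h1e*, *Rbl1* and *Mki67*, given above, also lay on opposite sides at 4 hours. At 4 hours, *Atf3*, a stress-induced repressor, had 0.894 in S phase cells and -0.609 in 0-UMI cells, *Irf7* had -0.611 and 0.409, the monocyte chemokine *Ccl7* had 1.77 and -0.429, the neutrophil chemokine *Cxcl1* had -0.310 and 0.197, and lysozyme *Lyz2* had 0.304 and -0.0871. At 1 hour, the growth factor *Igf1* had -0.178 and 0.121. Of these, *Irf7* lost the sign of its interval without the cell with the most UMIs in each library (-0.34, -0.87 to 0.19), while *Ccl7* kept it (1.84, 1.12 to 2.63).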

How the results depend on the processing

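Shares depend on the depth of 135 cells and on where the limits are set, and all intervals leave out the spread between cultures. The share of S phase cells (Ctrl, LP1 and LP4) was 1.75%, 2.01% and 1.61% after thinning to 2000 UMIs with the limit of 5, 2.51%, 3.12% and 2.00% with a limit of 3, and 2.07%, 1.99% and 1.37% at 4000 UMIs. Without thinning it was 1.62%, 1.43% and 1.92% with 3 or more UMIs, 0.613%, 0.456% and 0.215% with 10 or more, 0.397%, 0.337% and 0.474% with 0 UMIs of the G2 genes, and 5.20%, 7.36% and 5.23% with no limit on them. Asking also for at least 0.05% of the UMIs of a cell gave 0.927%, 0.615% and 0.366%, and 3 or more UMIs of *Pclaf* and *Rrm2* alone gave 0.381%, 0.655% and 0.754%, the opposite order of the libraries. Of 253 genes higher in S phase than 0-UMI cells, the number was 161 against all other cells, 472 with cells chosen after thinning to 4000 UMIs (added after seeing the data), 62 at 50 CPM and 467 with no minimum. Of 23 lower, it was 61 with TMM, 42 with median of ratios, 42 with 10 or more S UMIs, 62 without the top cell of each gene (added after seeing the data) and 3 at 50 CPM.

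For LP1 over Ctrl, the 791 higher and 658 lower genes were 349 and 314 with cells chosen after thinning, 125 and 114 at 50 CPM and 1754 and 1871 with no minimum. For LP4, the 1219 higher genes were 533 at 50 CPM, and the 1274 lower were 406 at 50 CPM and 2922 with no minimum. Genes whose LP4 response exceeded that of 0-UMI cells (126) were 192 as means over cells, 196 with cells chosen after thinning and 6 with 50 UMIs in all sums. Those that fell short (169) were 258, 90 and 12, and 75 with 10 or more S UMIs. For LP1 they were 104, 33 and 0 (from 56) and 94, 93 and 0 (from 58) under the same 3 settings. Of 1056 medians of lists under alternatives, 1006 moved by less than their spread and 49 moved more. Of the medians past 2-fold, 1 changed sign, that of G2 and mitosis genes in LP4 over Ctrl, which was 0.010 with cells chosen after thinning. Medians nearer 0 changed sign more often: for LP1 over Ctrl those of immediate early genes in 6 alternatives, fork genes in 4 and effector genes in 3, and that of CDK inhibitors in S phase over 0-UMI cells of LP1 in 4. The cause of these shifts was not tested.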

Other observations

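Genes of the CSF1 receptor pathway, through which macrophage colony-stimulating factor keeps these cells alive and dividing, had median log2 ratios of S phase over 0-UMI cells of -0.09, -0.27 and -0.17 in Ctrl, LP1 and LP4. The log2 ratio of their summed level, in which the growth factor *Igf1* was the most abundant, was -0.23 (-0.31 to -0.15), -0.29 (-0.37 to -0.21) and -0.17 (-0.24 to -0.10) in the same order. All 13 were measured, of which 4, 1 and 4 had a ratio above 0, and 7 were lower and 0 higher in all 3 libraries, none of them by over 2-fold. In S phase cells of LP4 over Ctrl, 1 was over 2-fold higher and 2 over 2-fold lower, near or under the shares of all genes (14.4% and 15.1%), with a median of -0.37 beside -0.22 in 0-UMI cells. *Spred1*, an inhibitor of the Ras to ERK route, stood at 149, 199 and 422 CPM in S phase cells, a ratio of 1.5 (1.11 to 1.90) beside 1.18. The ubiquitin ligase *Cbl*, which takes the receptor down after it has bound its ligand, stood at 160, 172 and 88.2 CPM, a ratio of -0.86 (-1.37 to -0.36) beside -1.01. *Csf1r* itself had a ratio of -0.77 (-1.03 to -0.51) beside -0.86.

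The 11 genes that mark subsets of BMDMs in this study were picked on these libraries. Of them, 2 were over 2-fold lower in S phase cells throughout, beside 0.320% of 7191 genes. The medians of the 11 were -0.54, -0.17 and -0.32. The endosomal exchanger *Slc9a9* stood at 82.3, 66.4 and 33.6 CPM against 246, 177 and 46.7 CPM in 0-UMI cells. *Fgf13* stood at 379, 398 and 116 CPM against 332, 414 and 74.3 CPM. The actin gene *Actb* stood at 12384, 9307 and 7470 CPM against 8770, 7503 and 5516 CPM, the higher level in S phase cells of each library. The surface glycoprotein *Adgre1* (F4/80) stood at 102, 110 and 265 CPM against 179, 202 and 257 CPM, and the co-receptor *Cd14* at 234, 591 and 1146 CPM against 300, 604 and 1473 CPM. Monocyte and progenitor markers summed to 13.0, 49.8 and 7.0 CPM in S phase cells against 24.8, 32.5 and 18.7 CPM, mostly from *Ccr2*.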
